A study of Mus musculus with 6 samples.

Results

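The Slc2a genes encode the GLUT family of sugar carriers. The family was read here from every probe set of the array that is annotated to 1 of 10 Slc2a genes alone. This gave 19 probe sets for 10 genes, out of 45101 probe sets and 18193 genes that have 1 or more probe sets to themselves. The 10 genes were Slc2a1, Slc2a2, Slc2a3, Slc2a4, Slc2a5, Slc2a6, Slc2a8, Slc2a9, Slc2a10 and Slc2a12.

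The signals come from 6 Affymetrix mouse arrays of fetal liver cells. Liver cells of C57BL/6 fetuses at day 13.5 of gestation were sorted for early erythroid progenitors by flow cytometry, using 7AAD to mark dead cells and the erythroid surface proteins CD71 and Ter119. Each group has 3 arrays, wild type or EKLF -/- by label. The EKLF -/- fetuses lack EKLF, an erythroid transcription factor encoded by Klf1, through a targeted allele built from genomic clones of strain 129, with the targeted clones placed in C57BL/6 blastocysts, per the labels. The comparison asks how transcript levels in these sorted cells differ without EKLF.

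GLUT proteins carry sugars across membranes down their concentration gradient and need no energy of their own. Members differ in affinity, substrate and place in the cell. GLUT1, the product of Slc2a1, is the main glucose carrier of human red cells, and in the mouse it is found on red cells before birth and is lost from them afterwards. Slc2a1 and Slc2a3 are also known targets of the hypoxia-inducible factors.

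Of the 19 probe sets 14, for 8 genes, passed a filter on low values, a mean log2 signal of at least 6.62 or a signal of 98.6. Each was compared between the groups with limma, adjusted over all 27023 probe sets tested, and a call means an adjusted p under 0.05. Of the 14 tested probe sets 10 were called higher on the knockout-labelled arrays and 0 lower (0 also at an unadjusted p under 0.05 in limma), where 28.1% of all tested probe sets were called higher and 15.7% lower. Taken at its brightest probe set, 6 of the 8 tested genes rose (Slc2a1, Slc2a2, Slc2a3, Slc2a5, Slc2a8 and Slc2a10), against 26.1% of all tested genes called higher and 19.7% lower. Slc2a4 and Slc2a9 did not pass, and Slc2a6 and Slc2a12 lay under the filter. Slc2a2 and Slc2a10 passed the filter through their knockout-labelled values alone, so they had to differ, and the counts are no support for a change of the family. The median log2 difference, knockout-labelled minus wild-type-labelled, was 1.14 over the 8 member genes and 0.14 over all 12799 genes tested. The member median includes Slc2a2 and Slc2a10, so it is no support for a change of the family either.

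**Figure D1:**
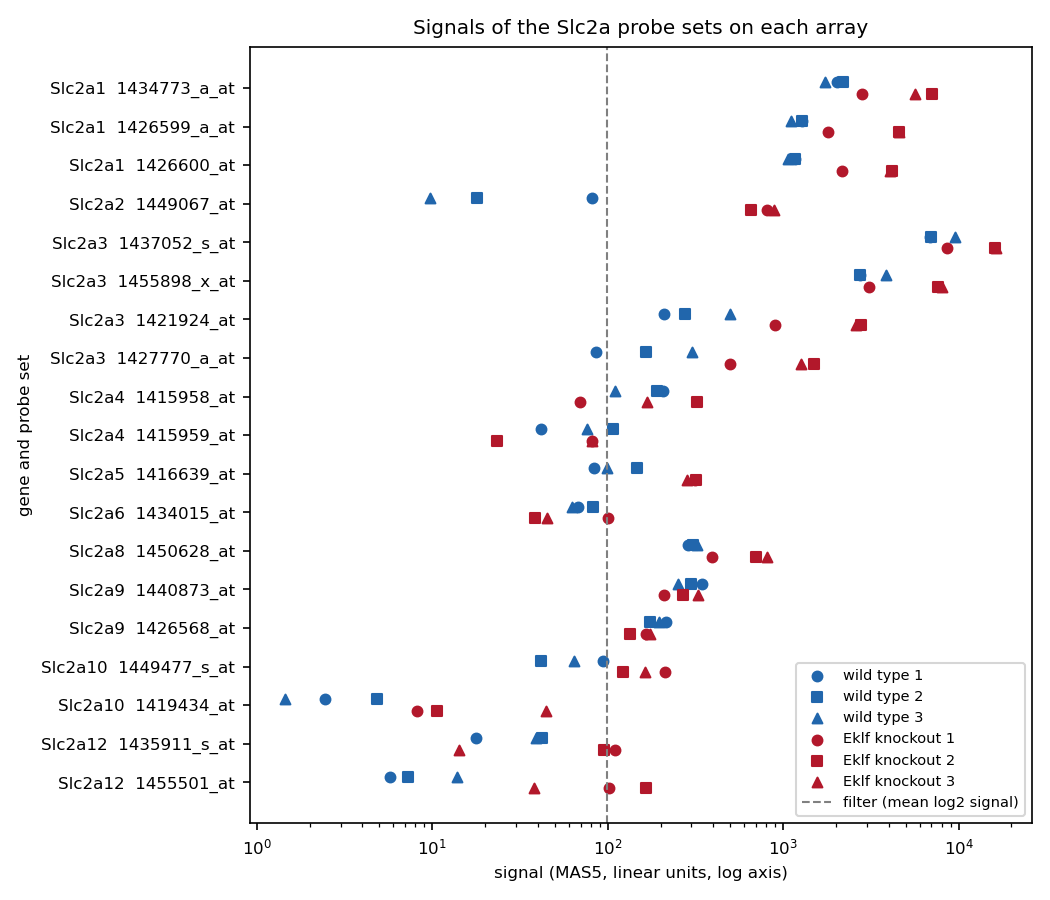
Signal on a log axis (MAS5, linear units) of each of the 19 Slc2a probe sets on the 3 wild-type-labelled arrays (blue) and the 3 knockout-labelled arrays (red). The dashed line marks the filter, a signal of 98.6. The 3 Slc2a1 probe sets and Slc2a2 separate the groups, and Slc2a4, Slc2a6 and Slc2a9 lie close together or overlap.

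The scaling of the arrays bears on every direction given here. The deposited values share 1 trimmed mean of 500, but the median signal ran from 97.7 to 140 on the wild-type-labelled arrays and from 204 to 218 on the knockout-labelled ones. Relative to the deposited scaling, the median difference of all tested probe sets moved by -0.32 with quantile normalization, by -0.29 with cyclic loess and by -0.82 with median centring. The share of calls that were higher was 64.2% as deposited, and the same 3 scalings in that order gave 46.5%, 47.8% and 17.0%. Under median centring 5 of the 14 member probe sets were called, 3 higher and 2 lower. Of all 27023 tested probe sets, 2101 were called higher and 10273 lower under that scaling.

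All 12 erythroid markers measured were above the filter signal in both group means, and 10 of them were called higher on the knockout-labelled arrays. Their signals summed to 28240 to 32137 in the wild-type-labelled group, where 10 neutrophil and monocyte markers summed to 189744 to 221689. In the knockout-labelled group they summed to 92498 to 116490, and 16 hepatocyte markers summed to 130242 to 206782. Such sums depend on the genes listed and do not give shares of cells. Markers of other cell types also differed between the groups, where 26.1% of all tested genes were called higher and 19.7% lower. Called higher were 16 of 16 tested hepatocyte markers, 9 of 10 of megakaryocytes, 9 of 10 of stroma, 5 of 10 of endothelium and 8 of 11 of macrophages, of which 2 fell. Called lower were 8 of 9 lymphoid markers, 7 of 10 of neutrophils and monocytes, 6 of 7 of mast cells and basophils, and 6 of 8 of progenitors, of which 1 rose. Some measured markers had a wild-type-labelled mean under the filter signal: 6 of macrophages, 3 of stroma, 2 of hepatocytes, 1 of megakaryocytes and 1 of endothelium. The knockout-labelled mean of 5 lymphoid markers also lay under it. The tested ones among these passed the filter through 1 group alone, so they had to differ. The part of these cell types in the differences below was not tested unless a value is given. In sorted bulk RNA, fewer cells of a type and less RNA per cell cannot be told apart. Klf1 itself gave 2508, 2706 and 4030 (wild-type-labelled arrays 1 to 3) against 3505, 1391 and 2545 (knockout-labelled arrays 1 to 3). Its log2 difference was -0.38 ± 0.32 SE (adjusted p = 0.358 by limma), and the groups overlapped. The position of its probe set relative to the targeted part is not given here, and the groups therefore keep their labels as names.

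Promoter sequence was available in the RefSeq table (GRCm38.p6) for 8 of the 10 members. Shown are the 250 bases before the start of Slc2a1 (chr4:119108495-119108744, plus strand), Slc2a2 (chr3:28697653-28697902, plus strand) and Slc2a5 (chr4:150119094-150119343, plus strand), which rose, and of Slc2a9 (chr5:38483386-38483635, minus strand), which did not pass. The table's start of Slc2a9 lies inside its annotated span (chr5:38349272-38503147), so the window need not be the promoter used in these cells. The 4 are shown because EKLF binds CACCC elements. Each is written 5′ to 3′ on the strand of the gene, with capitals for matches to CACCC or to CCNCNCCC, a longer form of the element, on either strand. The forms can overlap each other and GC boxes of other factors.
Slc2a1: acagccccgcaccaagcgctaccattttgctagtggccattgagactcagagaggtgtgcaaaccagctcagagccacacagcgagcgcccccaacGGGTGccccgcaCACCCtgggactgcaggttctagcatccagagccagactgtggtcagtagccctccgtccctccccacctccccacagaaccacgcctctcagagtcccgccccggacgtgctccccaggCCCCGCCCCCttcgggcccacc
Slc2a2: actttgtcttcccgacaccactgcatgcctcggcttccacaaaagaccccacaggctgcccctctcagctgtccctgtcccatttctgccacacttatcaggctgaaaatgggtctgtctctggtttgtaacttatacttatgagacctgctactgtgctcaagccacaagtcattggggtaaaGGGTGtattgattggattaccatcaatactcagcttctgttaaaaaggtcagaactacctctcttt
Slc2a5: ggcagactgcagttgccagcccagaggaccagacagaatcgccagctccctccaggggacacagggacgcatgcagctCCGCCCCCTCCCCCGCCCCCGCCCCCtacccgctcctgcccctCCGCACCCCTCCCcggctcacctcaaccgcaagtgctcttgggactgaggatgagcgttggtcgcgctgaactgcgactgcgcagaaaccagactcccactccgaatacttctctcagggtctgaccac
Slc2a9: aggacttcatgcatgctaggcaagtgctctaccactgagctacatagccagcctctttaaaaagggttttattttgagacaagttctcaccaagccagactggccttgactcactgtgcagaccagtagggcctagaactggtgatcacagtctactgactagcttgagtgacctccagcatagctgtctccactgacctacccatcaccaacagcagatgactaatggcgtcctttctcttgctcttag

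CACCC was present in the windows of 6 of the 8 members and in 52% of all 32851 windows of this length. The windows that hold it are those of Slc2a1, Slc2a2, Slc2a5, Slc2a6, Slc2a8 and Slc2a10, and those of Slc2a9 and Slc2a12 have no match. CCNCNCCC was present in 3 of the 8 (Slc2a1, Slc2a5 and Slc2a10) and in 45.9% of all windows. The GATA motif GATAA was present in 1, Slc2a2, and in 22.6% of all windows. The hypoxia response core ACGTG was present in 1, Slc2a1, and in 16.6% of all windows. These are matches of letters in a short window and do not show binding.

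Among the carriers of the first class, which favour glucose, Slc2a1 gave the same picture on all of its 3 probe sets. At the brightest the signals were 2023, 2200 and 1731 (wild-type-labelled arrays 1 to 3) against 2831, 7030 and 5646 (knockout-labelled arrays 1 to 3). Every knockout-labelled array lay above every wild-type-labelled one, and array 1 of the knockout-labelled group lay nearest to them. The means were 1984 ± 237 and 5169 ± 2140 (SD, n = 3), which differ on the log2 scale by 1.29 ± 0.30 SE (adjusted p = 0.00926 by limma). The other probe sets gave 1.46 ± 0.33 (by limma, adjusted p = 0.00792) and 1.55 ± 0.25 (by limma, adjusted p = 0.00165). With 1 alternative taken on the mean of its probe sets (1.43), Slc2a1 stayed called in 18 of 19 alternatives, all 6 fits without 1 array among them. The exception was median centring (0.47, adjusted p = 0.232 by limma), under which the other probe sets also did not pass (0.64 and 0.74). Among the fits without 1 array, the difference was highest without array 1 of the knockout-labelled group (1.67) and lowest without array 2 of that group (1.02).

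Slc2a2 encodes GLUT2, the low-affinity carrier of hepatocytes and of insulin-secreting cells. Its single probe set gave 81.0, 18 and 9.77 (wild-type-labelled arrays 1 to 3) against 804, 654 and 882 (knockout-labelled arrays 1 to 3). The wild-type-labelled signals all lay under the filter, and the knockout-labelled ones far above it. Means were 36.3 ± 39.0 and 780 ± 116 (SD, n = 3), and the difference in log2 was 5.0 ± 0.69 SE (adjusted p = 0.000719 by limma), a size that rests on dim wild-type values. It was called in all of the 18 alternatives that tested it, at 3.13 to 5.87. The summed signal of the 16 measured hepatocyte markers ran from 9064 to 9717 in the wild-type-labelled group and was 130242, 135487 and 206782 in the knockout-labelled group. Of these markers 2, Vtn and Fgb, had wild-type-labelled means under the filter signal. The brightest were Afp, a fetal plasma protein, at 3472 on the wild-type-labelled arrays, and Alb, serum albumin, at 40107 on the knockout-labelled arrays. Their part in the Slc2a2 difference was not tested.

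Slc2a3 encodes GLUT3, a high-affinity glucose carrier of neurons, platelets and white cells, and it had 4 tested probe sets that differed in size of change. At the brightest the signals were 6823, 6958 and 9537 (wild-type-labelled arrays 1 to 3) against 8607, 16030 and 16426 (knockout-labelled arrays 1 to 3). Knockout-labelled array 1 lay inside the wild-type range, so the groups overlapped. The means were 7773 ± 1530 and 13687 ± 4405 (SD, n = 3), and the log2 difference passed narrowly at 0.77 ± 0.26 SE (adjusted p = 0.0407 by limma). With 1 alternative taken on the mean of its probe sets (1.72), Slc2a3 stayed called in 12 of 19 alternatives. It did so in 2 of the 6 fits without 1 array, those without knockout-labelled array 1 (1.08) and without wild-type-labelled array 3 (0.93). In the other 4 the adjusted p of limma ran up to 0.141. After median centring the difference at the brightest probe set was -0.041. The second brightest did not pass at 0.91 ± 0.34 SE (adjusted p = 0.0582 by limma), though it passed after quantile normalization (1.10) and cyclic loess (1.14).

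The 2 dimmer probe sets of Slc2a3 showed a larger rise. At the brighter of this pair the signals were 208, 275 and 497 (wild-type-labelled arrays 1 to 3) against 894, 2795 and 2616 (knockout-labelled arrays 1 to 3). The groups did not overlap, and the difference in log2 was 2.62 ± 0.46 SE (adjusted p = 0.00256 by limma). At the dimmer it was 2.59 ± 0.52 SE (adjusted p = 0.00468 by limma). Both stayed called in all of the 17 alternatives run on them, median centring included (1.80 and 1.78). Within each array, the brighter of this pair gave 3.05%, 3.95% and 5.21% of the signal of the brightest probe set in the wild-type-labelled group and 10.4%, 17.4% and 15.9% in the knockout-labelled group. The corresponding shares of the second brightest probe set overlapped between the groups, at 39.2% to 40.3% and 35.8% to 48.8%. The probe sets of this gene thus changed unequally, and the transcript ends they read are not given here. Megakaryocytes and platelets also hold GLUT3, and their 10 measured markers summed to 8098 to 9380 in the wild-type-labelled group and 34834 to 45163 in the knockout-labelled group. Most markers of some white cells went the other way. In the same order of groups, neutrophil and monocyte markers summed to 189744 to 221689 and 97955 to 203741. Lymphoid markers summed to 23692 to 34845 and 1043 to 1498. Macrophage markers summed to 29101 to 33802 and 21234 to 28534, though 8 of the 11 tested were called higher and 2 lower. The part of any of these cells in the Slc2a3 difference was not tested.

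Slc2a4, which encodes the insulin-responsive carrier GLUT4 of muscle and fat, showed no difference that passed. Its brighter probe set gave 207, 190 and 111 (wild-type-labelled arrays 1 to 3) against 69.9, 322 and 168 (knockout-labelled arrays 1 to 3). The knockout-labelled values spanned the whole wild-type range, and the difference in log2 was -0.068 ± 0.55 SE (adjusted p = 0.927 by limma). The sign turned without wild-type-labelled array 1 (0.10), without wild-type-labelled array 2 (0.042) and without knockout-labelled array 1 (0.51). The other probe set lay under the filter, with means of 74.8 and 62.3.

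The second class holds the fructose carrier GLUT5, from Slc2a5, and the urate carrier GLUT9, from Slc2a9. Slc2a5 gave 84.0, 146 and 99.2 (wild-type-labelled arrays 1 to 3) against 316, 320 and 285 (knockout-labelled arrays 1 to 3). The knockout-labelled arrays lay close together and above all others. Means were 110 ± 32.4 and 307 ± 19.5 (SD, n = 3), which differ on the log2 scale by 1.52 ± 0.33 SE (adjusted p = 0.00631 by limma). It passed in all 6 fits without 1 array. It did not pass after quantile normalization (0.79, limma adjusted p = 0.0734), cyclic loess (0.76, 0.0883) or median centring (0.71, 0.101).

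Slc2a9 did not pass on either of its probe sets. The brighter gave 343, 298 and 250 (wild-type-labelled arrays 1 to 3) against 209, 268 and 327 (knockout-labelled arrays 1 to 3), which overlap (-0.16 ± 0.28 SE on the log2 scale, adjusted p = 0.659 by limma). The dimmer gave 175 to 215 against 134 to 174, with groups that met but did not overlap (-0.31 ± 0.30 SE, adjusted p = 0.422 by limma). After median centring both were called lower, at -0.98 and -1.12 (by limma, adjusted p = 0.0147 and 0.0165). The dimmer was also called lower after quantile normalization (-1.05) and cyclic loess (-1.08). Whether Slc2a9 differed therefore depended on the scaling.

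The third class holds carriers that mostly reside on membranes inside the cell. Slc2a8, which encodes the intracellular carrier GLUT8, gave 287, 307 and 325 (wild-type-labelled arrays 1 to 3) against 394, 698 and 813 (knockout-labelled arrays 1 to 3). The wild-type-labelled arrays were tightly grouped, and knockout-labelled array 1 was nearest to them. Means were 306 ± 18.8 and 635 ± 217 (SD, n = 3), which differ on the log2 scale by 0.99 ± 0.29 SE (adjusted p = 0.0239 by limma). Slc2a8 did not pass in 4 of the 6 fits without 1 array (without wild-type-labelled array 1 or 2 and without knockout-labelled array 2 or 3, limma adjusted p 0.0547 to 0.0911). It also did not pass after quantile normalization (0.71), cyclic loess (0.71) and median centring (0.17).

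Slc2a10 encodes GLUT10, whose loss in humans causes arterial tortuosity syndrome. Its brighter probe set gave 93.9, 41.7 and 64.2 (wild-type-labelled arrays 1 to 3) against 212, 123 and 164 (knockout-labelled arrays 1 to 3). The groups did not overlap, and the difference was 1.36 ± 0.46 SE (adjusted p = 0.0378 by limma). The call was lost in all 6 fits without 1 array (limma adjusted p 0.0501 to 0.115) and under each of the 3 other scalings (0.46 to 0.55). Its other probe set, not tested, lay at 1.45 to 4.81 in the wild-type-labelled group and 8.16 to 44.5 in the knockout-labelled group.

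Slc2a6, which encodes GLUT6, a carrier of spleen and white cells, lay under the filter with means of 70.8 ± 10.1 and 61.3 ± 34.1 (SD, n = 3). Slc2a12, which encodes GLUT12, had both of its probe sets under the filter. At the dimmer the signals were 5.75, 7.24 and 13.9 (wild-type-labelled arrays 1 to 3) against 101, 164 and 37.9 (knockout-labelled arrays 1 to 3). At the brighter they were 17.7, 41.9 and 38.8 against 110, 95.3 and 14.1. The groups were apart on the first and overlapped on the second. Of the 5 member probe sets under the filter 2 had groups apart with the knockout-labelled arrays higher, where 33.9% of all probe sets under the filter did. Of the 14 tested ones 9 did, where 37.5% of all tested probe sets did. These 9 include Slc2a2 and Slc2a10, which passed the filter through their knockout-labelled values alone and so had to be higher there. Several others are probe sets of the same gene, Slc2a1 or Slc2a3, so the count is no support for a change of the family.

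**Figure D2:**
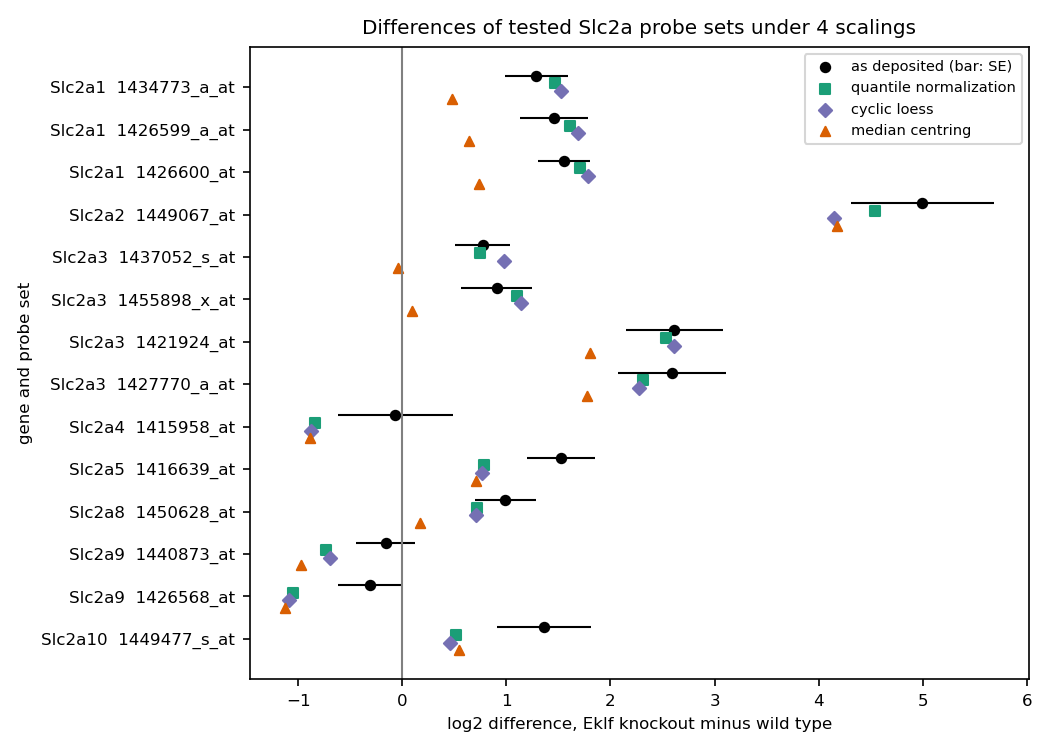
Log2 difference, knockout-labelled minus wild-type-labelled, of the 14 tested Slc2a probe sets under the deposited scaling (black, bar 1 SE), quantile normalization, cyclic loess and median centring. The Slc2a1 differences lie between 0.47 and 1.78, the brightest Slc2a3 probe set falls to -0.041 after median centring, and Slc2a9 lies below 0 throughout.

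Knockout-labelled array 1 was the lowest of its group for some members. Of the 10 called member probe sets 7, those of Slc2a1, Slc2a3 and Slc2a8, had their lowest knockout-labelled signal on it, where 51.6% of all probe sets called higher did. Slc2a1 and Slc2a3 count 3 times each in this. By gene, 3 of the 6 called members did, near the 49.2% of all genes called higher. Slc2a2, Slc2a5 and Slc2a10 did not. Among hypoxia-inducible genes, a list of 16 such as Bnip3 and Vegfa, all 16 had their lowest knockout-labelled signal on array 1, where 36.3% of all tested genes did. So did 9 of 10 neutrophil and monocyte markers, 9 of 10 megakaryocyte and platelet markers, 13 of 18 glycolysis genes and 6 of 9 lymphoid markers, but 0 of 10 stromal markers. This order was looked for after the Slc2a1 values were seen. The summed signal of the list was 20761 to 22862 in the wild-type-labelled group and 32287, 70329 and 55282 in the knockout-labelled group (arrays 1, 2 and 3). The part of this order in the Slc2a1 and Slc2a3 differences was not tested.

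**Figure D3:**
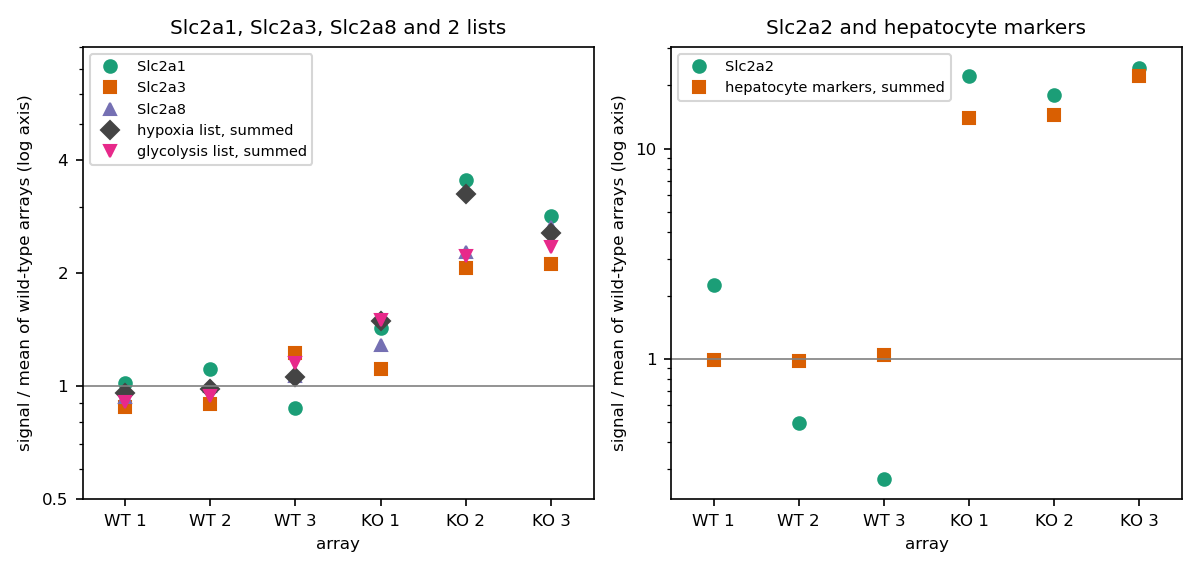
Signal on each array over the mean of the 3 wild-type-labelled (WT) arrays, on log axes, with KO for the knockout-labelled arrays. Left, Slc2a1, Slc2a3 and Slc2a8 at their brightest probe sets with the summed hypoxia and glycolysis lists, all lower on KO 1 than on KO 2 and KO 3. Right, Slc2a2 with the summed hepatocyte markers, which were high on all 3 knockout-labelled arrays.

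Of the 16 hypoxia-inducible genes 10 rose and 1 fell, where 26.1% of all tested genes were called higher and 19.7% lower. Their median log2 difference was 1.12, against 0.14 over all tested genes. The gene that fell at its brightest probe set, Pdk1, a mitochondrial kinase, gave -0.69 there and 0.066 to 2.55 on its 3 other tested probe sets. With the mean of probe sets per gene, 14 of the 16 rose and the median was 1.55. In that fit 3109 of 11355 tested genes rose, and their overall median was 0.22. P4ha2, a subunit of a collagen hydroxylase, rose by 4.77, from a mean of 31.8, under the filter signal, to 596. Bnip3, a mitochondrial protein of mitophagy, rose by 3.40, P4ha1, which encodes the related subunit, by 2.33 and Kdm3a, a histone demethylase, by 1.89. Bnip3 gave 7449, 19273 and 14533 on the knockout-labelled arrays and 1108 to 1388 on the wild-type-labelled ones. Over the fits without 1 array the count called higher ran from 7 to 12. It was 7 without knockout-labelled array 2 or 3, and 12 without knockout-labelled array 1. After median centring the count was 4 higher and 3 lower, where 2101 of all 27023 tested probe sets were higher and 10273 lower.

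Genes for glucose phosphorylation and glycolysis, the steps that follow uptake, mostly moved upward. Of 18 tested genes 14 rose and 1 fell, against 26.1% and 19.7% of all tested genes. The median log2 difference of the list was 1.00, against 0.14 over all tested genes. Bpgm, which makes 2,3-bisphosphoglycerate, rose by 4.05 and Aldoc, an aldolase, by 2.57. Eno2, an enolase, rose by 3.38 from a mean of 43.5, under the filter signal, so it was tested through its knockout-labelled values alone and the size rests on dim values. Hk3, a hexokinase of myeloid cells, fell by 2.95, while Hk1 (-0.27 ± 0.18, SE) and Hk2 (-0.51 ± 0.29) did not pass (by limma, adjusted p = 0.236 and 0.176). After median centring 4 rose and 4 fell, where 2101 of all 27023 tested probe sets rose and 10273 fell.

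Of 20 regulators of these carriers 4 were called higher and 5 lower, near the shares of all tested genes (26.1% and 19.7%). After median centring 2 were higher and 11 lower, where 2101 of all 27023 tested probe sets were higher and 10273 lower. Txnip, an arrestin-like protein that promotes the removal of GLUT1 from the cell surface, gave 3143, 3062 and 3754 (wild-type-labelled arrays 1 to 3) against 1044, 1550 and 1399 (knockout-labelled arrays 1 to 3). The groups were far apart, and the difference was -1.33 ± 0.19 SE (adjusted p = 0.000870 by limma). Its other tested probe set gave -1.41. Of the transcription factors, Mlxip, a glucose sensor, fell by 1.86, its liver-enriched relative Mlxipl rose by 2.86 and Epas1, a hypoxia-inducible factor, rose by 2.10. The wild-type-labelled means of Mlxipl (107) and Epas1 (104) lay near the filter signal, so the sizes of both rest on dim values. Add2, a membrane skeleton protein, rose by 1.65. Hif1a did not pass (0.14 ± 0.26 SE, adjusted p = 0.668 by limma), nor did Stom, the stomatin that binds GLUT1 in red cells (0.56 ± 0.21 SE, adjusted p = 0.0552 by limma). The probe sets of both genes disagree, with -0.56 to 0.92 on the 2 others of Hif1a and -0.061 to 1.31 on the 5 others of Stom.

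Of the 6 tested genes of the sodium-coupled and other sugar carriers 0 passed in limma at their brightest probe sets, and 0 had an unadjusted p under 0.05. The probe sets of Slc5a3 (0.50 at the brightest, 2.00 at the other tested) and of Slc5a2 (-0.30 and 1.45) disagree. After median centring 2 of the 6 were called lower, where 10273 of all 27023 tested probe sets were. Of 7 genes of lactate and pyruvate carriage 2 rose and 1 fell, near the shares of all tested genes (26.1% and 19.7%). Slc16a3, the lactate exporter MCT4, rose by 2.05 and its chaperone Bsg by 1.41, while Emb, a chaperone of lactate carriers, fell by 2.30. Of 9 genes of fructose, urate and vitamin C 4 rose and 1 fell, against the same 26.1% and 19.7%. Abcg2, an exporter of urate and porphyrins, rose by 3.00 and Slc23a1, a vitamin C carrier, by 2.14. Gulo, the last enzyme of vitamin C synthesis, rose by 3.40 from a mean of 59.3, under the filter signal. Xdh, which makes urate, fell by 5.27 to a mean of 57.5, also under it. Each of these was tested through the values of 1 group alone, and the size rests on dim values. Of 8 genes of hepatic glucose output 2 rose and 1 fell, which is also near those shares. Pygl, the liver glycogen phosphorylase, fell by 1.68. Gys2, the liver glycogen synthase, rose by 2.67 from a mean of 71.6, and Gckr, the glucokinase regulator, by 2.58 from a mean of 54.3. Both means lay under the filter signal, so these genes too passed it through their knockout-labelled values alone.

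**Figure D4:**
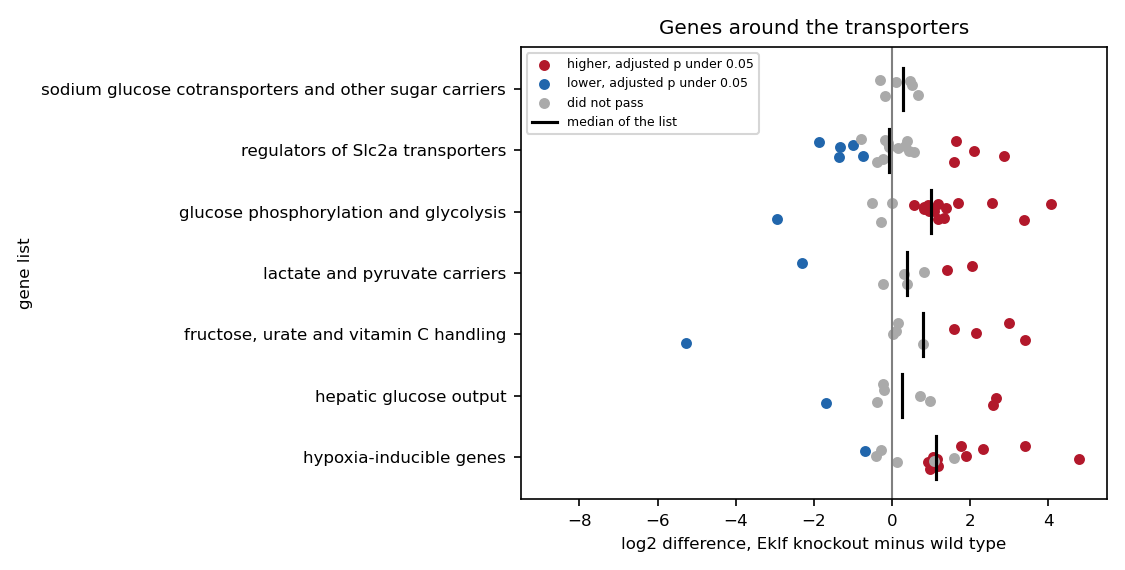
Log2 difference, knockout-labelled minus wild-type-labelled, of the tested genes of 7 lists around the transporters. Each point is 1 gene at its brightest probe set, red or blue where it passed upward or downward, and the black line is the median of the list, such as 1.00 for glycolysis and 1.12 for the hypoxia-inducible genes.

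The genes most like a member over the 6 arrays were taken by Pearson's r of log2 signals. The points share arrays and the group difference, so r is a description. For Slc2a3 at its brightest probe set they were Gabarapl1, H2-DMb2, Tbpl1, Adipor1 and Fau, with r from 0.997 to 0.992, and 173 of 12798 genes had r above 0.95. For Slc2a2 they were Sdk2, Kctd16, Metap2, Asap2 and Fbxw19, with r from 0.997 to 0.994, and 417 genes had r above 0.95.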

How the data were processed

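Cells sorted for early erythroid progenitors were profiled on 6 arrays, 3 per group, from 10 micrograms of total RNA each. The submitters' processing notes name MAS5 and Affymetrix Expression Console without versions, and the deposited values are linear signal intensity. MAS5 corrects background and sets the trimmed mean of every array, with the brightest and dimmest values left out, to 1 level. Stronger signals among the values kept can thus lower the other values of that array. The part of this in the difference of median signals between the groups was not tested. MAS5 detection calls were not used here. The labels call the RNA samples independent.

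The platform annotation gave 1 gene for 34958 probe sets, several for 932 and none for 9211, and 34754 of them were matched to RefSeq for current symbols. Signals under 1 were set to 1, log2 was taken, and probe sets whose mean fell under the 40th percentile, as well as 64 controls, were left out. The comparison used limma 3.58.1 (lmFit, eBayes with trend; R 4.3.3), two-sided, with Benjamini-Hochberg adjustment over 27023 probe sets. A gene was taken at its brightest probe set. Named were all members, Klf1, up to 4 called genes per pathway list with the largest difference, with Txnip, Hif1a and Stom, the brightest marker of a list in each group (given for hepatocytes), and the 5 genes most like Slc2a3 (brightest member) and Slc2a2 (largest difference). Vtn, Fgb, Vegfa, Pdk1, Hk1 and Hk2 were named outside this rule after their values were seen. Members and lists were chosen with earlier results of these data known. The fit was tested on simulated data with 50 probe sets changed at each size. At log2 changes of -1 and 1 it recovered 5 and 7 of the 50, and at -2 and 2 it recovered 23 and 30. Of its 67 calls 2 were false. The simulated data held far fewer changed probe sets than were called here, so these shares need not hold for the real data. Figures used matplotlib 3.10.9 in Python 3.11.15.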

Additional observations from a re-analysis of the deposited data

How the results depend on the processing

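Of the 6 member genes called, Slc2a2 kept its call in all 18 alternatives that tested it, Slc2a1 in 18 of 19, Slc2a5 in 15 of 18, Slc2a3 and Slc2a8 in 12 of 19 each, and Slc2a10 in 6 of 17. The count of called genes was 3 after quantile normalization and cyclic loess (Slc2a1, Slc2a2 and Slc2a3 in both), 2 after median centring (Slc2a2 higher, Slc2a9 lower), 3 with the filter at the 60th percentile, where 4 genes were tested, and 3 at an adjusted p under 0.01. Over the 6 fits without 1 array it ran from 3 to 5, and from 7 to 10 for probe sets, and the 4 fits with 3 called Slc2a1, Slc2a2 and Slc2a5. Under median centring 5 member probe sets were called, and the brightest Slc2a3 probe set reversed to -0.041. Differences that had not passed also turned sign without 1 array, for Slc2a4 to 0.042, 0.10 and 0.51 and for the brighter Slc2a9 probe set to 0.0070. Their lowest values in such fits were -0.59 (without knockout-labelled array 2) and -0.31 (without knockout-labelled array 3). Over all features 11838 probe sets were called, 6147 at an adjusted p under 0.01, and 6232 genes with 1 probe set per gene or 5032 with the mean of probe sets, where fewer features are tested. The replicate numbers do not pair the arrays by the rule used, since same-numbered arrays deviated together with correlations of 0.042, 0.054 and 0.076. With the replicate number as a block 11829 probe sets were called, 11 of them members, and 6 member genes. With 3 arrays per group, small differences of dim probe sets such as those of Slc2a4 and Slc2a9 are measured imprecisely, and the cause of calls lost under other scalings was not tested.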
